A study of Mus musculus with 12 samples.

Results

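The tubular injury markers are 10 genes, Spp1, Clu, Lcn2, Vcam1, Cd44, Havcr1, Sox9, Krt8, Krt18 and Krt19, that the kidney tubule is known to make more of when it is damaged. They were taken by gene name from a table of 55421 mouse genes, where each name matched 1 row, and all 10 were among the 18461 genes that passed a low-count filter. RNA of renal cortex was sequenced from 12 mice, 3 in each of 4 groups that cross genotype with diabetes. Wild-type mice were either non-diabetic (WT-C) or diabetic (WT-D), and mice with a knockout of ANRIL were likewise non-diabetic (KO-C) or diabetic (KO-D). The labels give an age of 8 weeks, the study's methods say that the mice were male, and the strain entry 129S6/SvEvTac-Del[4C4-C5]1Lap/Mmcd stands on every sample, wild type included. The diabetic mice had been injected intraperitoneally with streptozotocin, a toxin of the insulin-making beta cells, at 50 mg/kg on 5 days in a row and were followed for 2 months, and per the methods the controls had citrate buffer. The labels carry the streptozotocin text on every sample, controls included, so diabetic and control mice are told apart by the sample titles and short descriptions. The knockout mice lack a region of chromosome 4 matching the human locus of the long noncoding RNA ANRIL, and nothing in the labels limits the loss to one cell type.

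A healthy proximal tubule cell is a polarized, mitochondria-rich cell built for reabsorption. After injury the surviving cells lose part of that programme, shed or secrete proteins that reach the urine (Havcr1, also called KIM-1, and Lcn2, also called NGAL), re-express the developmental transcription factor Sox9 and rebuild their intermediate filaments from the simple-epithelial keratins. Cells that do not complete the repair keep adhesion molecules such as Vcam1 on their surface. Several of these genes are also made by other cells of the cortex: Vcam1 by endothelium, Cd44 by leukocytes, Krt18 and Krt19 by the collecting system and the urothelium.

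The libraries held 23781928 to 67336174 counted reads. The markers of proximal tubule, thick ascending limb, distal tubule, collecting duct, podocytes and endothelium were all read, with 20 of 20 proximal tubule markers past the filter. The noncoding genes Gm12606, Gm12609 and Gm12610 of the knockout region had at most 0, 6 and 1 reads in any library, too few to check the genotype labels. Along principal component 1, with 50.9% of the variance, the 6 controls lay between -65.4 and -33.0 and 5 diabetic libraries between 47.9 and 66.0, while WT-D replicate 3 lay at 5.92. WT-D replicate 1 held 2005 reads of Adipoq and 1937 of Cidec, markers of fat cells, against 0 to 60 reads in each of the other libraries, and the highest sum of urothelium markers. Replicates correlated at r of 0.969 to 0.99 within groups.

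Levels are reads per 1000000 counted reads (CPM) after TMM scaling, and for comparisons between genes CPM per kilobase of exon. In WT-C the secreted phosphoprotein gene Spp1 was the most abundant member, at 194 ± 56.6 CPM per kilobase (mean ± SD, n = 3 mice in this and every group below). Krt8 followed at 53.7 ± 10.6, Clu at 25.5 ± 3.05, Havcr1 at 11.95 ± 2.72 and Krt18 at 9.05 ± 2.86. Havcr1 and Krt18 overlapped between mice, and the members above them did not overlap with their neighbours. The other 5 were far lower, with Lcn2 at 0.622 ± 0.237, Krt19 at 0.371 ± 0.214, Vcam1 at 0.334 ± 0.122, Cd44 at 0.112 ± 0.0393 and Sox9 at 0.105 ± 0.0356 CPM per kilobase. Mice of neighbouring genes in this order overlapped, except those of Vcam1 and Cd44. In KO-D the order at the top was Spp1 (810 ± 214 CPM per kilobase), Clu (108 ± 18.3), Krt8 (27.2 ± 2.24) and Havcr1 (26.2 ± 11.2), so Clu lay above Krt8 in every KO-D mouse, while Krt8 and Havcr1 overlapped.

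Vcam1, Cd44, Clu, Spp1 and Sox9 were higher in diabetic mice of both genotypes, Krt18 and Krt19 passed in the wild type, Havcr1 passed in the knockout, Lcn2 passed in neither, and Krt8 fell in the knockout. In the wild type, 7 of 10 members were higher with diabetes, 0 were lower and 3 did not pass an adjusted p of 0.05 (WT-D against WT-C, limma on log2(CPM + 0.1), Benjamini-Hochberg over all 18461 genes), where 22% of all genes passed, 13.7% upwards and 8.22% downwards. With the threshold at 0.01, 4 members were higher, against 8.33% of all genes in either direction. In KO-D against KO-C 6 were higher, 1 was lower and 3 did not pass, where 31.1% of all genes passed, 13.6% higher and 17.4% lower. The wild-type groups did not overlap for 9 members, all higher in WT-D (20.9% of all genes), and the knockout groups did not overlap for 5 that were higher (22.6%) and 1 that was lower (25.4%). The median change over the 10 members was 1.61 on the log2 scale in the wild type and 1.53 in the knockout, beside medians of 0.05 and 0.02 over all genes tested. Members were not chosen at random, so these counts describe them and carry no test of the panel. In bulk tissue, more cells of a type and more RNA per cell cannot be told apart.

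**Figure D1:**
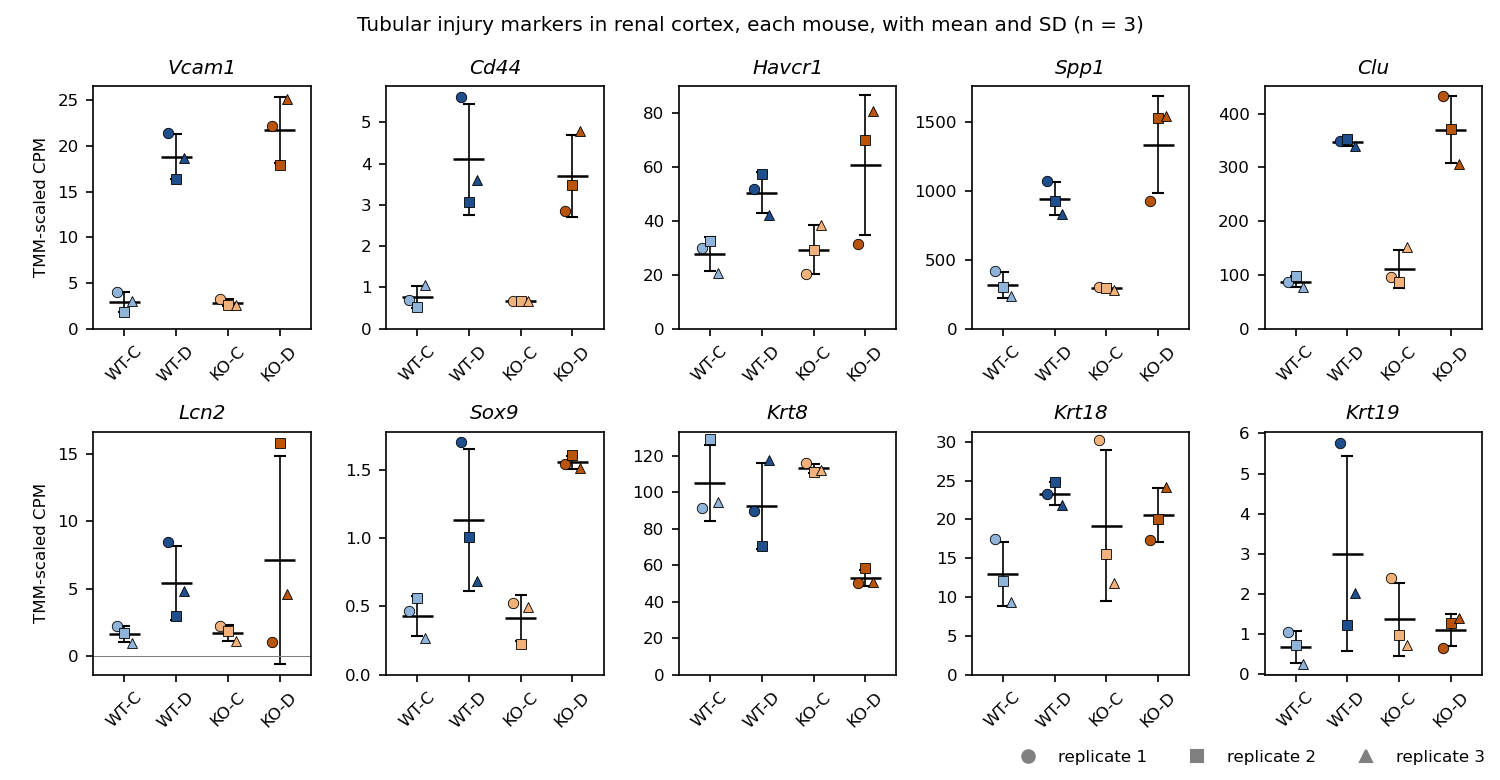
TMM-scaled CPM of the 10 members in each mouse, with 1 panel per gene and a linear axis. Points are mice, the horizontal line is the group mean and the bar the SD (n = 3). The diabetic mice of both genotypes stand above all controls for Vcam1, Cd44, Spp1, Clu and Sox9, and the KO-D mice stand below all others for Krt8.

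In mm10 the members lie on 6 chromosomes, and Krt8 and Krt18 are neighbours on chromosome 15, with 23697 bases between their rows and on opposite strands. RefSeq promoter sequence of GRCm38.p6, the assembly of mm10, was at hand for 6 of the 10 members. Shown, 5′ to 3′ on the gene's strand, are the exon-free parts of the 250 bases before the start site for the 4 of them with the largest wild-type change and no overlap of the groups, and for Krt8, the member that fell, beside its neighbour Krt18. Start sites are those of the RefSeq promoters. For Lcn2 that start differs from the start of the gene row (chr2:32384633-32388252), and the printed stretch lies inside the row, outside its exons. Capitals mark matches of the motifs searched.
Cd44, chr2:102901666-102901915, minus strand: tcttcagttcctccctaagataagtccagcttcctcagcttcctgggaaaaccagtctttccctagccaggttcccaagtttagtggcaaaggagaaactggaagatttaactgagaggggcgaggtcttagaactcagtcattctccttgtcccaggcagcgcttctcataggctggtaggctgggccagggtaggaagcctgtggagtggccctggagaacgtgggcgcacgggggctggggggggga
Spp1, chr5:104434861-104435110, plus strand: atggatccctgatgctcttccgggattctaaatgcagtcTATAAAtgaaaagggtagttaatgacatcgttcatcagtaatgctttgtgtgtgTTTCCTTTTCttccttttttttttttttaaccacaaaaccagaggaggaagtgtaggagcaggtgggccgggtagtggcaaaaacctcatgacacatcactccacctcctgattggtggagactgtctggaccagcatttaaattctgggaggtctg
Lcn2, chr2:32387798-32387850, minus strand: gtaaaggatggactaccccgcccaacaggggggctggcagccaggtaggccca
Krt18, chr15:102027966-102028179, plus strand: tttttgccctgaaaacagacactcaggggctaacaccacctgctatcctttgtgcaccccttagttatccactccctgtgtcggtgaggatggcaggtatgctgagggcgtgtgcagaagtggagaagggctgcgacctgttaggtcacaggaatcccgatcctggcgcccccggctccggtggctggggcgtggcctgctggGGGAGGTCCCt
Krt8, chr15:102004483-102004592, minus strand: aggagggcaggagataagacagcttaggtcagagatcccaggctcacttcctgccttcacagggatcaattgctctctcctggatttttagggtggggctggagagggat

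Both strands were searched for the NF-κB motif (GGGA and CC with NNNN between them), TGANTCA (AP-1), the interferon response motif (GAAA and GAAA with NN between them), TTCNNNGAA (STAT) and TATAAA. Among 32817 windows of 250 bases before a start site, they stood, in this order, in 17.6%, 6.75%, 2.97%, 7.01% and 12.4%. The Spp1 stretch held TATAAA 211 bases before the start and the interferon response motif on the minus strand 157 bases before it, the Krt18 stretch held the NF-κB motif 47 bases before the start, where the same letters match on both strands, and none of the marked matches overlap another motif. No match stood in the printed stretches of Cd44, Lcn2 and Krt8, of which those of Lcn2 (53 bases) and Krt8 (110 bases) are shorter than the windows counted. The Lcn2 stretch lies inside the gene row, so the sequence before the start of that row was not searched.

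Spp1 (ENSMUSG00000029304, chr5:104435118-104441050, plus strand) encodes osteopontin, a secreted glycoprotein that binds integrins and CD44. Its level was 421, 301 and 237 CPM in the WT-C mice and 1071, 930 and 829 in the WT-D mice. In the knockout it was 300, 297 and 281 CPM in KO-C and 929, 1531 and 1546 in KO-D. All 6 diabetic mice lay above all 6 controls. An overlapping gene on the same strand, Gm42793, had at most 23 reads in a library. The rise was 1.59 on the log2 scale in the wild type (SE 0.24, 3.02-fold, adjusted p = 0.000853) and 2.15 in the knockout (SE 0.24, 4.44-fold, adjusted p = 8.36e-05).

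Clu (ENSMUSG00000022037, chr14:65968483-65981547, plus strand) encodes clusterin, a secreted chaperone that binds misfolded proteins. Its level was 86.7, 98.5 and 77.7 CPM in WT-C and 348, 353 and 340 in WT-D, where the SD was 6.72 CPM. In the knockout it was 96.6, 85.9 and 152 CPM in KO-C and 433, 371 and 307 in KO-D. The diabetic and control groups did not overlap in either genotype. The rise was 1.99 on the log2 scale in the wild type (SE 0.20, adjusted p = 6.74e-05) and 1.76 in the knockout (SE 0.20, adjusted p = 9.63e-05).

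Lcn2 (ENSMUSG00000026822, chr2:32384633-32388252, minus strand) encodes lipocalin 2, a secreted carrier of bacterial iron chelators that is measured in urine as an early sign of acute tubular damage. Its level was 2.23, 1.68 and 0.985 CPM in WT-C and 8.46, 3.00 and 4.81 in WT-D, with no overlap. In the knockout it was 2.26, 1.84 and 1.10 CPM in KO-C and 1.01, 15.8 and 4.64 in KO-D. KO-D replicate 1 lay below every KO-C mouse and KO-D replicate 2 was the highest of all 12. The change did not pass the threshold in the wild type (1.62 on the log2 scale, SE 0.71, adjusted p = 0.115) or in the knockout (1.31, SE 0.71, adjusted p = 0.18). Without KO-D replicate 1 the knockout change was 2.29 (adjusted p = 0.0071), and without KO-D replicate 2 it was 0.38 (adjusted p = 0.671), so single mice decided this value. On the recovered reads the knockout change was 2.04 by edgeR (adjusted p = 0.0445) and 2.06 by DESeq2 (adjusted p = 0.0391), past the threshold in both. The wild-type change passed with only the groups compared (adjusted p = 0.0219), and without KO-D replicate 1 or KO-D replicate 2 (adjusted p = 0.0282 and 0.0423).

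Vcam1 (ENSMUSG00000027962, chr3:116109949-116129688, minus strand) encodes an adhesion molecule that binds integrin α4β1 on leukocytes. Its level was 4.02, 1.85 and 3.02 CPM in WT-C and 21.4, 16.4 and 18.7 in WT-D. In the knockout it was 3.26, 2.63 and 2.61 CPM in KO-C and 22.2, 17.9 and 25.2 in KO-D. Every diabetic mouse lay above every control. This was the largest change among the members in both genotypes, 2.69 on the log2 scale in the wild type (SE 0.24, 6.43-fold, adjusted p = 3.39e-05) and 2.89 in the knockout (SE 0.24, 7.42-fold, adjusted p = 2.39e-05).

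Cd44 (ENSMUSG00000005087, chr2:102811141-102901665, minus strand) encodes the main cell-surface receptor for hyaluronan, which also binds osteopontin. It had few reads in controls, 19 to 31 reads per library in WT-C and 21 to 23 in KO-C. Its level was 0.698, 0.533 and 1.05 CPM in WT-C and 5.63, 3.07 and 3.61 in WT-D. In the knockout it was 0.675, 0.666 and 0.666 CPM in KO-C and 2.84, 3.48 and 4.79 in KO-D. Each diabetic mouse lay above every control. The rise was 2.29 on the log2 scale in the wild type (SE 0.29, adjusted p = 0.000365) and 2.27 in the knockout (SE 0.29, adjusted p = 0.000188). At such levels the pseudocount shrinks the value, and with a pseudocount of 1 the wild-type change was 1.51 (adjusted p = 0.000512).

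Havcr1 (ENSMUSG00000040405, chr11:46735080-46779578, plus strand) encodes KIM-1, a receptor for phosphatidylserine by which injured proximal tubule cells engulf dead cells. Its level was 29.9, 32.4 and 20.5 CPM in WT-C and 51.7, 57.4 and 42.2 in WT-D, with no overlap. In the knockout it was 20.2, 29.1 and 38.4 CPM in KO-C and 31.2, 69.9 and 80.6 in KO-D, where replicate 1 fell inside the control range. The change of 0.88 on the log2 scale in the wild type did not pass (SE 0.32, adjusted p = 0.0652), while the change of 0.98 in the knockout did (SE 0.32, adjusted p = 0.0332). The difference between them was 0.10 (95% interval -0.88 to 1.08, adjusted p = 0.948). With only the groups compared the wild-type change passed and the knockout change did not (adjusted p = 0.0182 and 0.0575), likewise with the GC and length trend removed (0.0443 and 0.0782). The wild-type change also passed with DESeq2 (adjusted p = 0.0403) and without scaling (0.0241), and the knockout change was lost without the low-count filter (0.0739). The knockout call was lost without KO-C replicate 1, KO-C replicate 2, KO-D replicate 2 or KO-D replicate 3 (adjusted p = 0.113, 0.0686, 0.112 and 0.152), and the wild-type change passed without KO-D replicate 1 (adjusted p = 0.0182).

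Sox9 (ENSMUSG00000000567, chr11:112782224-112787760, plus strand) encodes an SRY-box transcription factor that surviving tubule cells switch on soon after damage. It was the member with the fewest reads, 8 to 20 per library in WT-C and 7 to 18 in KO-C. Its level was 0.465, 0.561 and 0.272 CPM in WT-C and 1.71, 1.01 and 0.688 in WT-D. In the knockout it was 0.528, 0.222 and 0.493 CPM in KO-C and 1.55, 1.61 and 1.52 in KO-D. All diabetic mice lay above all controls, closely so for WT-D replicate 3. The rise was 1.17 on the log2 scale in the wild type (SE 0.36, adjusted p = 0.035) and 1.75 in the knockout (SE 0.36, adjusted p = 0.0029). With a pseudocount of 1 the wild-type value was 0.55 (adjusted p = 0.0299). The wild-type call held in 17 of 25 alternatives. It was lost with only the groups compared (adjusted p = 0.0642) and with no low-count filter (0.0881), and Sox9 did not pass a filter at a mean of 1 CPM.

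**Figure D2:**
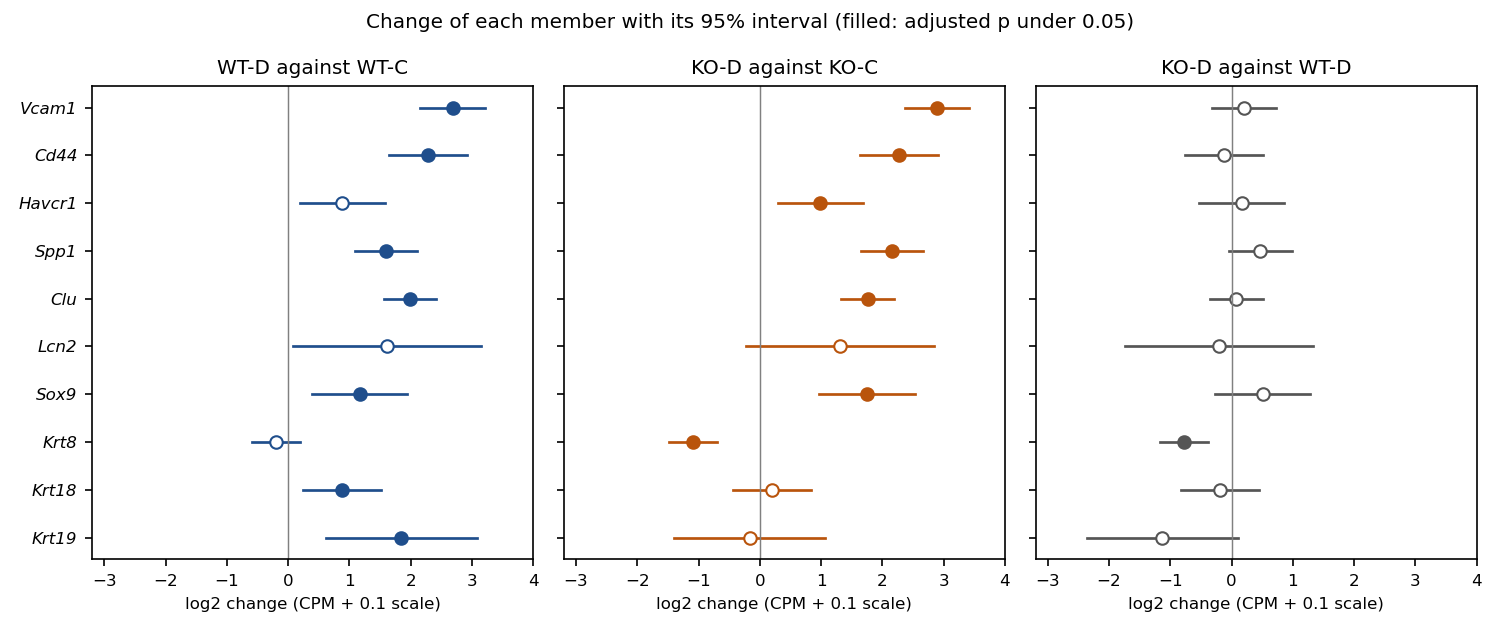
log2 change of each member with its 95% interval in 3 comparisons, on the log2(CPM + 0.1) scale. Filled points passed an adjusted p of 0.05 over all genes. In both diabetic comparisons Vcam1 has the largest change (2.69 and 2.89) and Krt8 the lowest (-0.19 and -1.09), and in KO-D against WT-D Krt8 alone is filled.

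The keratins did not move as a set. Krt8 (ENSMUSG00000049382, chr15:101996698-102004482, minus strand), the type II keratin of simple epithelia, which polymerizes with a type I partner such as Krt18 or Krt19, was 91.4, 129 and 94.9 CPM in WT-C and 90.0, 70.6 and 117 in WT-D. Of the WT-D mice, replicate 3 lay inside the WT-C range and the other two below it. In the knockout it was 116, 111 and 112 CPM in KO-C and 50.5, 58.3 and 50.9 in KO-D, the lowest 3 values of the 12. Between the wild-type groups Krt8 changed by -0.19 on the log2 scale (SE 0.18, adjusted p = 0.457, and 0.19 where the CPM were left unscaled). In the knockout Krt8 fell by 1.09 on the log2 scale (SE 0.18, adjusted p = 0.000761). KO-D was also below WT-D, by -0.77 (SE 0.18, adjusted p = 0.028). A processed pseudogene, Krt8-ps, had its own row with 39 to 208 reads per library, at most 3.69% of the Krt8 reads, and how reads were divided between these rows is uncertain.

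Krt18 (ENSMUSG00000023043, chr15:102028180-102032027, plus strand), a type I keratin, was 17.5, 12.1 and 9.41 CPM in WT-C and 23.3, 24.8 and 21.9 in WT-D. In the knockout it was 30.2, 15.5 and 11.8 CPM in KO-C and 17.4, 20.0 and 24.2 in KO-D. The wild-type groups did not overlap, while KO-C replicate 1 was the highest of all 12 mice. Krt18 changed by 0.88 on the log2 scale in the wild type (SE 0.29, adjusted p = 0.0464) and 0.20 in the knockout (95% interval -0.43 to 0.83, adjusted p = 0.641). The wild-type call held in 14 of 26 alternatives, and it was lost with RLE scaling (adjusted p = 0.0511), upper-quartile scaling (0.0536), no low-count filter (0.0815) and edgeR (0.0576). Krt19 (ENSMUSG00000020911, chr11:100140810-100148665, minus strand), a type I keratin of ducts and urothelium, was 1.06, 0.729 and 0.272 CPM in WT-C and 5.76, 1.24 and 2.03 in WT-D. In the knockout it was 2.41, 0.983 and 0.724 CPM in KO-C and 0.663, 1.28 and 1.40 in KO-D. WT-D replicate 1 alone held 466 reads, against 8 to 82 in the other 11 libraries. The fitted change was 1.85 on the log2 scale in the wild type (SE 0.57, adjusted p = 0.0353) and -0.17 in the knockout (95% interval -1.40 to 1.06, adjusted p = 0.851).

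Since type I and type II keratins assemble in pairs, the reads of the type I genes were also set against the Krt8 reads of the same library, a ratio that no scaling factor enters and that was chosen after the values were seen. Krt18 had 19.1, 9.38 and 9.92 reads per 100 Krt8 reads in WT-C and 25.9, 35.1 and 18.6 in WT-D. It had 26.0, 14.0 and 10.6 in KO-C and 34.5, 34.4 and 47.6 in KO-D. The ratio was higher in diabetic mice by 1.08 on the log2 scale in the wild type (exact permutation test, two-sided p = 0.2) and by 1.29 in the knockout (p = 0.1 by the same exact permutation test, the smallest that 3 against 3 allows). The knockout groups did not overlap and the wild-type groups met at WT-D replicate 3. In the knockout Krt8 itself changed by -1.09 on the log2 scale and Krt18 by 0.20, so the higher ratio there came mostly with fewer Krt8 reads. Krt19 had between 0.286 and 1.16 reads per 100 Krt8 reads in WT-C and between 1.73 and 6.40 in WT-D. In the knockout it had between 0.645 and 2.07 in KO-C and between 1.31 and 2.75 in KO-D. The Krt19 ratio was higher in diabetic mice by 2.23 on the log2 scale in the wild type (exact permutation test, p = 0.1). In the knockout it was higher by 0.92 (exact permutation test, p = 0.2).

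**Figure D3:**
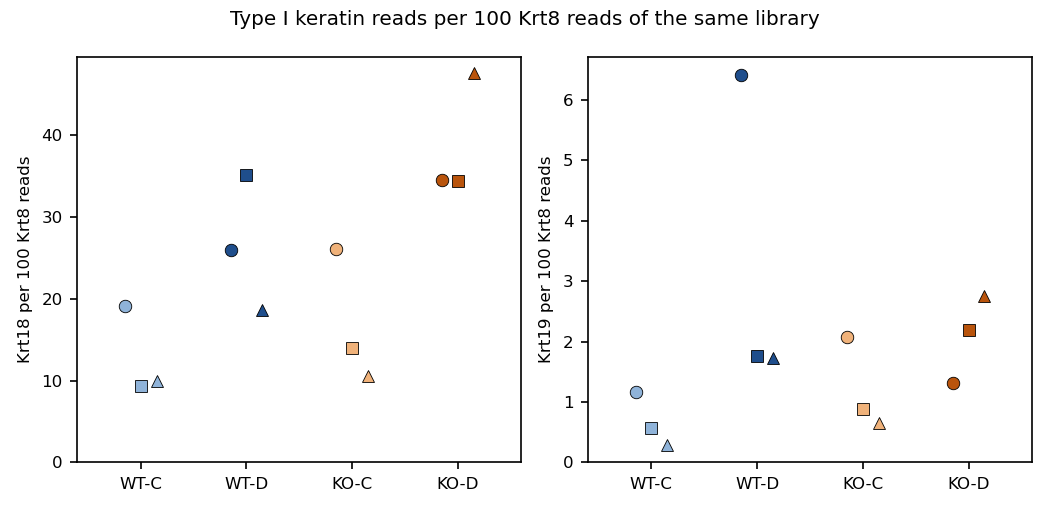
Reads of Krt18 (left) and Krt19 (right) per 100 Krt8 reads of the same library, by group, with 1 point per mouse. For Krt18 the KO-D mice sit between 34.4 and 47.6 and the KO-C mice between 10.6 and 26.0.

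Urothelial genes were uneven between libraries, as Krt19 was. The markers of the urothelium of the renal pelvis (7 of 8 tested) summed to 6.88, 4.37 and 1.19 CPM in WT-C, 33.0, 4.43 and 6.91 in WT-D, 15.8, 8.06 and 1.71 in KO-C and 1.01, 5.52 and 2.68 in KO-D. WT-D replicate 1 and KO-C replicate 1, the highest 2 sums, were also the highest 2 libraries for Krt19. Uroplakin genes were read in most libraries, with 694 reads of Upk1a in WT-D replicate 1 and 6 in KO-D replicate 1. None of the 7 markers passed the test in any comparison, and their part in the Krt19, Krt18 and Lcn2 results was not tested. Without WT-D replicate 1 the wild-type change of Krt19 was 1.25 (adjusted p = 0.179), that of Krt18 0.88 (adjusted p = 0.13) and that of Sox9 0.85 (adjusted p = 0.176). Without WT-C replicate 3, the lowest sum of its group, they were 1.39, 0.69 and 0.94 (adjusted p = 0.122, 0.145 and 0.119). Sox9 also missed the threshold without WT-C replicate 1, WT-D replicate 2 or KO-D replicate 3 (adjusted p = 0.0664, 0.0833 and 0.0502), and Krt19 without WT-C replicate 2 (adjusted p = 0.0557). Krt18 also missed it without WT-C replicate 2, WT-D replicate 2, KO-C replicate 2, KO-D replicate 2 or KO-D replicate 3 (adjusted p = 0.0903, 0.126, 0.0537, 0.0561 and 0.0572). Without WT-D replicate 1 or WT-C replicate 3 the wild-type count was 4 of 10 in either case, with Spp1, Clu, Vcam1 and Cd44 kept, and it was also 4 without both WT-D replicate 1 and KO-C replicate 1.

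**Figure D4:**
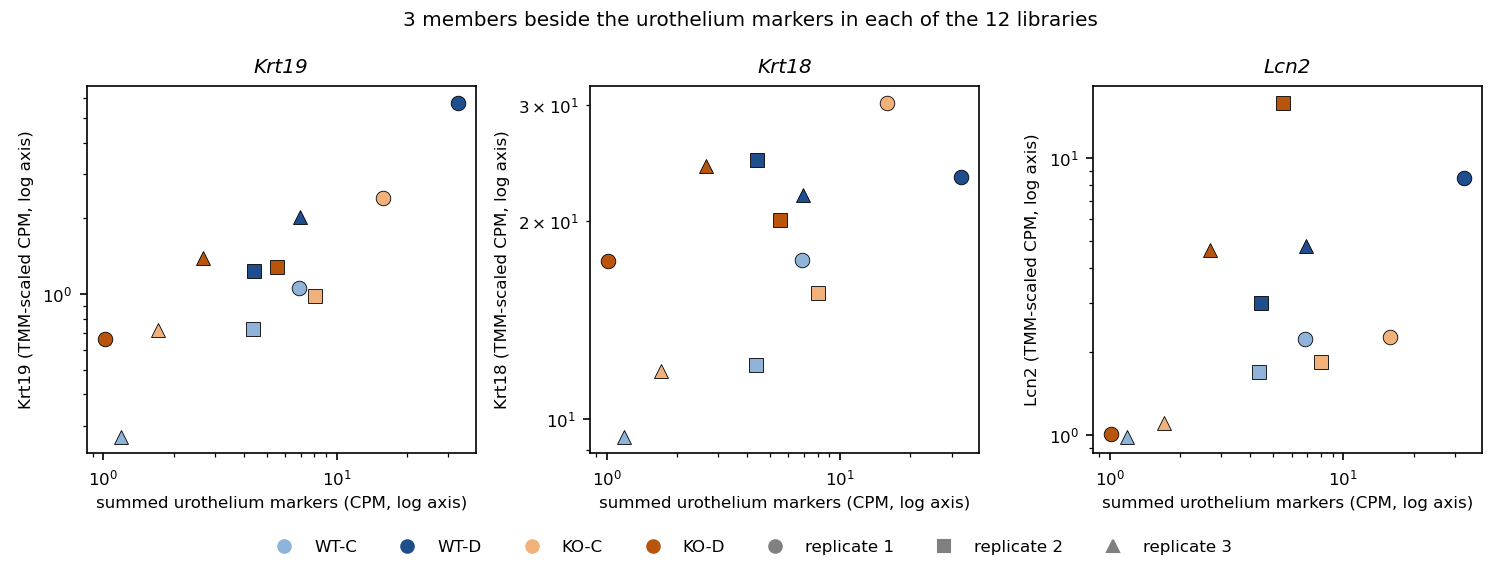
Krt19, Krt18 and Lcn2 (vertical, TMM-scaled CPM, log axis) against the summed urothelium markers (horizontal, CPM, log axis) in the 12 libraries, coloured by group and shaped by replicate. WT-D replicate 1, at a sum of 33.0, has the highest Krt19 (5.76 CPM) and 8.46 CPM of Lcn2. KO-D replicate 1, at 1.01, has the lowest Lcn2 of the diabetic mice (1.01 CPM), and KO-D replicate 2, at 5.52, has the highest Lcn2 of all 12 (15.8 CPM).

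In KO-D against WT-C, which uses the same WT-C libraries as the first comparison, 6 members were higher and 1 was lower, where 40.1% of all genes passed, 19.4% higher and 20.7% lower. The changes were 2.89 for Vcam1, 2.16 for Cd44, 2.07 for Clu, 2.07 for Spp1, 1.68 for Sox9, 1.04 for Havcr1 and -0.97 for Krt8 on the log2 scale. The groups overlapped for Havcr1, and its call was lost without WT-C replicate 3, KO-D replicate 2 or KO-D replicate 3 (adjusted p = 0.0744, 0.0757 and 0.0976). The Krt8 call was lost without scaling (-0.43, adjusted p = 0.0877). Set beside WT-D against WT-C, Krt18 and Krt19 did not pass in KO-D, with 0.69 (adjusted p = 0.0758) and 0.71 (adjusted p = 0.334). Krt18 passed there in 7 of 26 alternatives, among them no scaling (1.22, adjusted p = 0.00739), the GC and length trend removed (1.16, adjusted p = 0.00685) and only the groups compared (0.72, adjusted p = 0.0344). Lcn2 passed there with edgeR (2.13, adjusted p = 0.0316), DESeq2 (2.13, adjusted p = 0.0258) and no scaling (1.92, adjusted p = 0.0461). Tested directly, KO-D minus WT-D was -0.19 for Krt18 (adjusted p = 0.797) and -1.13 for Krt19 (adjusted p = 0.327).

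The genotypes were compared directly to ask whether the knockout alters the markers. Without diabetes, KO-C and WT-C differed for 0 of 10 members, where 0% of all genes passed in limma (1546 genes but no member had an unadjusted p under 0.05, and edgeR called 0 genes and DESeq2 9, no member among them). Changes ran from -0.12 for Cd44 to 0.88 for Krt19 (95% interval -0.35 to 2.11). In diabetic mice 1 of 10 members differed, Krt8, lower in KO-D and with no overlap, where 5.53% of all genes passed (5.43% lower and 0.103% higher) and 16.2% were lower with no overlap. For the members that rose in both genotypes the interval of KO-D minus WT-D was -0.32 to 0.73 for Vcam1, -0.76 to 0.51 for Cd44, -0.35 to 0.51 for Clu, -0.04 to 0.98 for Spp1 and -0.27 to 1.29 for Sox9 on the log2 scale. In this fit a difference of 2-fold in either direction lies outside these intervals for Vcam1, Cd44, Clu and Spp1, closely so for Spp1. Over the alternatives the Spp1 value ran from 0.27 to 0.71, and intervals were not compared there.

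The diabetes effect differed between the genotypes for 0 of 10 members in limma, where 0% of all genes passed (2688 genes had an unadjusted p under 0.05, 2 members among them). These were Krt8, at -0.90 (SE 0.26, adjusted p = 0.11 in limma), and Krt19, at -2.02 (SE 0.81, adjusted p = 0.266). On the recovered reads edgeR's quasi-likelihood test called 0 genes, and DESeq2 called 685 with Krt8 among them (adjusted p = 0.0499). Without WT-D replicate 2, the WT-D mouse with the lowest Krt8, limma called Krt8 too (-1.08, adjusted p = 0.0307). Without WT-D replicate 1 and KO-C replicate 1 the Krt19 value was -0.90 (adjusted p = 0.727). The call of Krt8 in KO-D against WT-D was lost in 12 of 26 alternatives, with an adjusted p of up to 0.264 and a change of -0.37 once a trend with GC content and gene length was removed, and was lost without WT-C replicate 3, WT-D replicate 1 or 3, KO-C replicate 1 or 2, or KO-D replicate 1 or 3 (adjusted p between 0.0527 and 0.146). The fall in KO-D against KO-C passed in 26 of 26 (-0.67 with that trend removed).

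**Figure D5:**
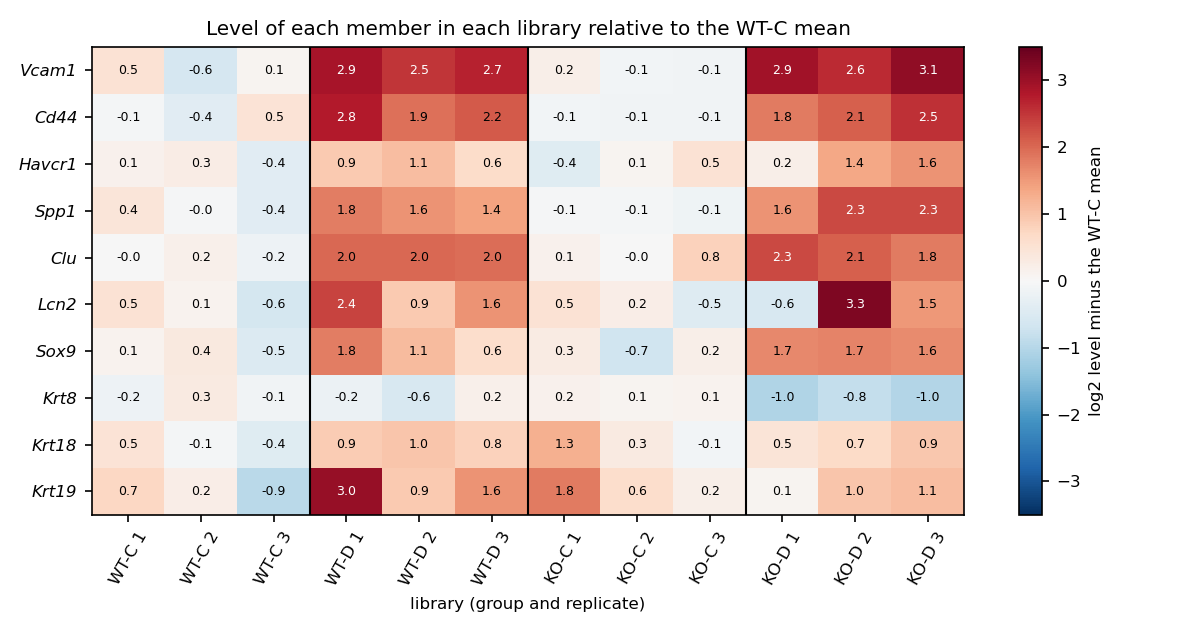
log2 level of each member in each library minus its WT-C mean, with libraries in columns by group. Vcam1, Cd44, Spp1 and Clu are raised in all 6 diabetic libraries, by 1.42 (Spp1 in WT-D replicate 3) to 3.11 (Vcam1 in KO-D replicate 3), Krt8 is at -1.04, -0.83 and -1.03 in the KO-D libraries, and Krt19 and Lcn2 vary most within a group.

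Of 31 further genes of epithelial injury, stress and repair, 28 passed the filter. In the wild-type comparison 16 rose and 1 fell, with a median change of 1.12, and in KO-D against KO-C 16 were higher and 2 lower, with a median of 0.90. Over all genes tested, 13.7% were higher and 8.22% lower in the wild type, and 13.6% and 17.4% in the knockout. Krt20, a keratin of surface urothelium and of injured tubule, had 4, 0 and 0 reads in WT-C and 185, 61 and 68 in WT-D (adjusted p = 0.000102), and 3, 0 and 1 in KO-C and 57, 65 and 135 in KO-D (adjusted p = 4.45e-05). The highest level of Krt20, 4.01 CPM, was in KO-D replicate 3, where the urothelium markers summed to 2.68 CPM. In WT-D replicate 1, where these markers summed to 33.0 CPM, Krt20 was at 2.29 CPM. Which cells made the Krt20 RNA was not tested. The complement gene C3 went from 8.54 to 62.5 CPM in the wild type and from 7.96 to 35.5 in the knockout. Atf3, a stress-induced transcription factor, went from 0.865 to 7.54 and from 1.00 to 13.7 CPM. Plin2, a coat protein of lipid droplets, went from 16.5 to 38.3 and from 20.2 to 34.6 CPM. The fibrinogen chain gene Fgg was lower in both (-0.87 and -0.90 on the log2 scale), and Igfbp7, whose product is a urinary marker of kidney injury, was lower in the knockout (-0.51).

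Genes used to mark proximal tubule cells left in an injured state after mouse kidney damage were also tested. In the wild type 10 of 15 were higher and in the knockout 11 of 15, and 0 were lower (median changes 1.05 and 1.15). Of all genes tested, 13.7% and 13.6% were higher in these comparisons. Bulk tissue does not show which cells made this RNA. Csf1, the growth factor of macrophages, went from 3.11 to 18.4 CPM in the wild type and from 3.65 to 16.4 in the knockout. Ccl2, a monocyte chemokine, went from 0.208 to 3.55 and from 0.126 to 3.04 CPM. Icam1, an adhesion molecule for leukocytes, rose in the wild type (1.55, adjusted p = 0.00118) and had a change of 0.59 in the knockout (adjusted p = 0.0811). The direct comparison of the diabetic groups gave -0.91 for it (KO-D against WT-D, adjusted p = 0.0457), but with only those groups in the fit 0 of all genes passed. Its difference of the diabetes effect between genotypes did not pass (-0.96, adjusted p = 0.198 in limma).

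Partners of the members moved in both directions. Of 15 tested receptors, ligands and ligand-making enzymes, 5 were higher and 1 lower in the wild type, and 5 higher and 4 lower in the knockout. The shares of all tested genes were 13.7% higher and 8.22% lower in the wild type, and 13.6% and 17.4% in the knockout. Among the integrin subunits, Itga4, which with β1 forms the Vcam1 receptor, went from 0.590 to 2.72 CPM in the wild type and from 0.433 to 2.55 in the knockout. Itga9, an osteopontin receptor subunit, went from 6.18 to 12.9 and from 5.04 to 11.5 CPM, and Itgb3, a subunit of another osteopontin receptor, from 0.752 to 2.05 and from 0.658 to 3.14 CPM. Timd2, a relative of Havcr1, was lower in both (-0.82 and -0.63 on the log2 scale). In the knockout Hyal2, which cuts the Cd44 ligand hyaluronan, fell from 32.9 to 12.02 CPM (-1.45, adjusted p = 0.000123), Slc22a17, an Lcn2 receptor, changed by -1.02 and Lrp2, the megalin gene, by -0.82. In the wild type Hyal2, Slc22a17 and Lrp2 changed by -0.40, -0.18 and -0.50 and did not pass (adjusted p = 0.111, 0.46 and 0.134). Their differences of the diabetes effect between genotypes did not pass in limma either (adjusted p = 0.0771, 0.115 and 0.717). Of the other Sox genes tested, Sox4 rose in both genotypes (0.88 and 1.06) and Sox8 in the wild type (1.34). Of the 8 other keratins tested, Krt20 rose and Krt10 fell in both genotypes (Krt10 changed by -0.88 and -0.74).

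Cell type markers also changed with diabetes, in directions that differed between the lists, and their part in the member changes was not tested. Beside the counts below, 13.7% of all tested genes were higher and 8.22% lower in the wild type, and 13.6% and 17.4% in the knockout. Of 20 genes of the differentiated proximal tubule 7 were lower in the wild type and 16 in the knockout, and 0 were higher. Their sum lay between 73889 and 94551 CPM in WT-C and between 26273 and 50123 in WT-D. In the knockout it lay between 65627 and 75573 CPM in KO-C and between 24138 and 35566 in KO-D. Kap, an androgen-responsive gene of the mouse proximal tubule, carried most of the sum, with means of 59517, 20078, 43435 and 16174 CPM in the same order, and the median change over the 20 genes was -0.76 in the wild type and -1.22 in the knockout. The organic anion transporter gene Slc22a8 fell by 1.66 and 2.21 on the log2 scale, the inositol oxygenase gene Miox by 1.03 and 1.84 and the glutathione-degrading enzyme gene Ggt1 by 0.96 and 1.51. Macrophage markers were higher for 11 of 12 in the wild type and 8 of 12 in the knockout, and their sum lay between 301 and 341 CPM in WT-C, 593 and 751 in WT-D, 293 and 308 in KO-C, and 254 and 663 in KO-D. Cd74 made up most of that sum, with means of 229, 493, 218 and 337 CPM in the same order, and did not pass in the knockout. Adgre1, the F4/80 antigen of macrophages, went from 1.33 to 6.003 CPM in the wild type and from 1.23 to 5.55 in the knockout, and the mannose receptor gene Mrc1 from 0.993 to 4.37 and from 0.712 to 3.63 CPM, and all 4 of these changes passed.

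Fibroblast and mural markers were higher for 12 of 12 and 11 of 12 (sums between 59.8 and 127 CPM in WT-C, 282 and 338 in WT-D, 62.3 and 87.2 in KO-C, and 137 and 257 in KO-D). Endothelial markers were higher for 5 of 9 and 2 of 9, with sums of 111 to 195, 232 to 375, 137 to 251 and 203 to 335 CPM in the same order. Podocyte markers were higher for 7 of 7 in both genotypes, distal convoluted tubule markers for 3 of 4 and 4 of 4, thick ascending limb markers for 2 of 6 and 1 of 6 and collecting duct markers for 3 of 12 and 5 of 12. Among all genes tested, 13.7% and 13.6% were higher, so the count for the thick ascending limb in the knockout was near that share. The water channel gene Aqp3 of the collecting duct was lower in KO-D than in KO-C (-0.60, adjusted p = 0.0141), and also than in WT-D (-0.61, adjusted p = 0.0473). Atp6v0d2, of the same list, was higher in KO-D than in KO-C (0.93, adjusted p = 0.000306) and than in WT-D (0.71, adjusted p = 0.0122). Of the 12 collecting duct markers, 1 was higher and 1 lower in KO-D against WT-D. When the knockout change was set against the wild-type change in limma, neither Aqp3 nor Atp6v0d2 passed (-0.67 and 0.44, adjusted p = 0.188 and 0.303). Lymphocyte markers were higher for 1 of 7 and 5 of 7, and summed to at most 4.90 CPM. Of 9 neutrophil markers only S100a9 and Ltf passed the filter, with sums of at most 2.08 CPM over both, and Ltf was called in the wild type alone. Of 6 tested markers of liver, spleen and fat, Serpina1a was higher and Ttr lower in both genotypes.

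Genes with the profile most like each member over the 12 libraries were listed by the root mean square difference of standardized log2 levels, as a description. Vcam1 was nearest to Serpine2 (0.12) and Krt20 (0.14), Clu to Htr3a (0.16) and Il1rn (0.17), Spp1 to Emb (0.14) and Pfkp (0.17), Sox9 to Treml2 (0.17) and Bcl2 (0.20), and Cd44 to Arhgap30 (0.15) and Mpeg1 (0.17). Krt8 was nearest to Uqcrc1 (0.14) and Slc25a39 (0.15). The nearest genes stood farther off for the other 4 members, with 0.36 for Havcr1 (Sqle), 0.30 for Lcn2 (Rhbdl2), 0.39 for Krt18 (Gem) and 0.32 for Krt19 (Sprr1a). Among pairs of members the nearest were Cd44 and Vcam1 (0.23) and Spp1 and Vcam1 (0.29), and Krt8 stood 1.32 to 1.80 from each of the others.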

How the data were processed

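RNA of renal cortex from 12 mice was analysed, 3 libraries in each group, with groups taken from the sample titles. Per the study's methods the authors made TruSeq RNA V2 libraries, which do not mark strand, aligned reads to mm10 with STAR 2.7.3a and counted reads per gene, so reads from overlapping genes on opposite strands cannot be told apart. The deposited values are CPM, each library summing to 1000000 without a scaling factor between libraries. A second deposited table holds the authors' own fold changes and adjusted p-values, which were not used. Dividing each library by its smallest value gave whole reads for 100% of 298586 values above 0 (within 0.01 of a whole number), and these reads served the low-count filter, the TMM factors and the count-based alternatives.

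Genes passing edgeR's filterByExpr (18461 of 55421) were tested with limma 3.58.1 (edgeR 4.0.16, R 4.3.3) on log2(CPM + 0.1) after TMM scaling, in 1 fit of the 12 libraries with 6 comparisons and Benjamini-Hochberg adjustment over all genes tested at 0.05. Fold changes are on that scale, which understates the change of low genes. Per the study's methods the controls were littermates, and the labels do not say which mice shared a litter. The fit treats the mice as independent, so no litter effect is taken into account in the p-values. On simulated counts for WT-D against WT-C (17013 genes), 64% of 2-fold and 96% of 4-fold changes were recovered, and 8 unchanged genes were called. The changes were placed only in genes above 1 CPM in WT-C, so these rates do not cover Sox9, Cd44 and Krt19. Far fewer genes were changed than passed in the real data, and no shift in composition between libraries was simulated, so the rates may differ there. Alternatives were other scalings (RLE by edgeR, upper quartile, none), pseudocounts, filters, edgeR's quasi-likelihood test, DESeq2 1.42.0, fewer groups, a replicate block, a GC and length trend, and each library left out. The members and gene lists were chosen with earlier results of these data known. All 10 members are named. Of other lists, genes were named by the smallest p (up to 4 in the wild type and 2 in the knockout) or where 5 or fewer were called, and Adipoq, Cidec, Upk1a, Kap, Cd74, Adgre1, Mrc1, the keratin ratios and Krt8's promoter were chosen after their values were seen. Gene positions are those of GENCODE for mm10.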

Additional observations from a re-analysis of the deposited data

How the results depend on the processing

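Clu, Spp1, Cd44 and Vcam1 passed 0.05 in 26 of 26 alternatives in both diabetic comparisons, as did the fall of Krt8 in KO-D against KO-C. In WT-D against WT-C the count of 7 members became 4 at an adjusted p of 0.01, 4 with no filter on low counts, 4 without WT-D replicate 1 and KO-C replicate 1 together (an alternative chosen after seeing the data), and 4 to 9 with 1 library left out. In KO-D against WT-D the count of 1 became 0 at 0.01, with no scaling, with only the groups compared, with the trend of GC and length removed and without that pair of libraries, and 0 to 1 with 1 library left out. The difference of the diabetes effect went from 0 to 1 with DESeq2 and was 0 to 1 with 1 library left out. The cause was not tested.

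Libraries with the same replicate number in their titles did not deviate together (correlations from -0.35 to 0.295, with 1 of 12 libraries nearest its own number). The short descriptions number the last library of WT-C, WT-D and KO-C otherwise than that of KO-D. Whether the title numbers pair any mice, as this check and the replicate block take them to, is therefore not known. With a replicate block, 0 members were called in KO-D against WT-D, where Krt8 kept its value of -0.77 at an adjusted p of 0.0621.

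Without scaling the median of all genes shifted to 0.42 for the wild-type and 0.35 for the knockout diabetes effect, and these signs turned: Krt8 in WT-D against WT-C (0.19), Krt19 in KO-D against KO-C (0.15), Spp1, Sox9, Cd44 and Vcam1 in KO-C against WT-C (0.10, 0.0792, 0.0476 and 0.18) and Cd44 in KO-D against WT-D (0.0169). With the GC and length trend removed, Krt19 in KO-D against KO-C was 0.28, Spp1 in KO-C against WT-C 0.0831, Havcr1, Lcn2, Krt18 and Vcam1 in KO-D against WT-D -0.0354, 0.0245, 0.16 and -0.0877, and the differences of the diabetes effect for Havcr1, Clu and Vcam1 -0.20, 0.17 and -0.0220. Lcn2 in KO-D against WT-D was 0.39 by edgeR and 0.44 by DESeq2, and its difference of the diabetes effect 0.30 and 0.36. That of Cd44 was 0.0216 and 0.0683, and 0.0351 with RLE, 0.11 with upper-quartile scaling and 0.0191 with a filter at a mean of 1 CPM. Vcam1 in KO-C against WT-C was 0.0046 with no filter. None of these values passed the threshold in either fit.

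With 1 library left out, signs also turned in KO-D against KO-C for Krt18 (-0.10 to 0.62, or 0.627 without the pair named above) and Krt19 (-0.51 to 0.34), in KO-C against WT-C for Havcr1 (-0.16 to 0.28), Lcn2 (-0.21 to 0.38), Spp1 (-0.29 to 0.0833), Sox9 (-0.31 to 0.23), Cd44 (-0.32 to 0.11), Krt8 (-0.0165 to 0.28) and Vcam1 (-0.30 to 0.20), in KO-D against WT-D for Havcr1 (-0.10 to 0.58), Lcn2 (-1.14 to 0.77), Clu (-0.0429 to 0.21) and Cd44 (-0.33 to 0.11), and in the difference of the diabetes effect for Havcr1 (-0.16 to 0.52), Lcn2 (-1.24 to 0.67), Clu (-0.35 to 0.0132) and Cd44 (-0.22 to 0.23). Without WT-D replicate 1 and KO-C replicate 1, Krt19 in KO-D against KO-C was 0.34, Lcn2 in KO-C against WT-C -0.13, Lcn2 and Cd44 in KO-D against WT-D 0.19 and 0.15, and the differences for Havcr1, Lcn2 and Cd44 -0.07, 0.32 and 0.29. Depth limits Sox9, Cd44 and Krt19 most, with as few as 7, 19 and 8 reads in a library.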
